A study of Homo sapiens with 12 samples.

Results

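NEAT1, MALAT1, ZFAS1 and the let-7 host transcript MIRLET7BHG are long noncoding RNAs, and ZNFX1 is the protein-coding neighbour of ZFAS1. They form 1 set because some of the widest H3K4me3 peaks of RWPE-1 cells lay at these loci. Members were the peaks of the deposited lists that touch 3 windows of build hg19, which are chr11:65120000-65280000 for NEAT1 and MALAT1, chr20:47850000-47910000 for ZNFX1 and ZFAS1, and chr22:46440000-46515000 for MIRLET7BHG. This gave 168 of the 457217 peaks on chromosomes 1 to 22 and X, namely 20 H3K4me3, 29 H3K27ac, 53 H3K36me3, 65 H3K4me1 and 1 H3K27me3 peak. The loci were chosen by the width of their H3K4me3 peaks, so widths and ranks of H3K4me3 are given as a description.

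RWPE-1 is a line of prostate epithelium that was immortalised with HPV18, and it was grown in keratinocyte medium without serum, with pituitary extract and EGF. All libraries came from these cells, untreated as far as the labels say, at a low passage. The study sequenced chromatin immunoprecipitated for 5 histone H3 marks, with 2 replicates each, and the deposited file of each mark is 1 list of peaks for the combined replicates. No value below therefore has an error between replicates, the reads behind a peak are unknown, and no difference between loci or marks could be tested. The labels give the H3K4me3 antibody as Abcam ab8850, and whether that catalogue number is that of an H3K4me3 antibody was not checked, so H3K4me3 below is the mark as labelled. The cell type was not checked against marker genes, since no hg19 annotation was used here.

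H3K4me3 is the mark of active and poised promoters and usually forms a narrow island at the start of a transcript. H3K27ac marks active promoters and enhancers, H3K4me1 lies at enhancers and beside promoters, and H3K36me3 is laid down behind elongating RNA polymerase over gene bodies. Very broad H3K4me3 has been described at highly transcribed genes and at genes of cell identity. NEAT1 is the scaffold RNA of nuclear paraspeckles and is made as a short and a long form from the same start. MALAT1 is an abundant RNA of nuclear speckles whose end is cut to release the small mascRNA. ZFAS1 hosts box C/D small nucleolar RNAs in its introns, and ZNFX1 is a zinc finger helicase that senses viral RNA. MIRLET7BHG hosts members of the let-7 family, which repress growth-promoting genes.

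Mature RNAs annotated inside the chromosome 22 host are shown first, as annotated products of that locus. No RNA was measured here. RefSeq (GRCh38.p14) places the hairpins MIR3619, MIRLET7A3, MIR4763 and MIRLET7B inside MIRLET7BHG. Of the mature RNAs listed for each hairpin, a single one is shown and the other is left out. The mature sequences run 5′ to 3′, and the capitals mark the seed, bases 2 to 8, which pairs with targets.
let-7a-5p: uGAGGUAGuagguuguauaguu
let-7b-5p: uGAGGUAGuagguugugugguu
miR-4763-3p: aGGCAGGGgcuggugcugggcggg
miR-3619-5p: uCAGCAGGcaggcuggugcagc
The let-7 pair shares the seed gagguag and differs at 2 of 22 bases, A17G and A19G from let-7a to let-7b, counted from 1 at the 5′ end. The seeds of miR-4763-3p and miR-3619-5p are ggcaggg and cagcagg.

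Promoter sequences are given because wide H3K4me3 was found at these loci. The RefSeq promoter table (GRCh38.p14) matched 3 of the 5 members, MALAT1 with 2 annotated starts, ZFAS1 and MIRLET7BHG, and did not list NEAT1 and ZNFX1. Each window holds 250 bases before and 50 after an annotated start, on the strand of the gene. Capitals mark the GC box GGGCGG and the TATA box TATAAA on either strand.
MALAT1 start 1: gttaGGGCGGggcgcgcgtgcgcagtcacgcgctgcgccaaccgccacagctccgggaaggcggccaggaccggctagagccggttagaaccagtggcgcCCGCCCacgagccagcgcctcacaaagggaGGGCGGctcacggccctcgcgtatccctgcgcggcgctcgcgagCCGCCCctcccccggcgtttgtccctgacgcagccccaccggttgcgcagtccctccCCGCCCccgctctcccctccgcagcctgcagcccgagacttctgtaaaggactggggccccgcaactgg
MALAT1 start 2: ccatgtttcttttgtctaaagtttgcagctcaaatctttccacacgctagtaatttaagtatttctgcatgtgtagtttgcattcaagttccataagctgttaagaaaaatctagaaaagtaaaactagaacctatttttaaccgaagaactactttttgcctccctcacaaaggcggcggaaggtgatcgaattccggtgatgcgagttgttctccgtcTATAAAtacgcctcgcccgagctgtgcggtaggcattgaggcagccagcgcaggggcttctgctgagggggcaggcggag
ZFAS1: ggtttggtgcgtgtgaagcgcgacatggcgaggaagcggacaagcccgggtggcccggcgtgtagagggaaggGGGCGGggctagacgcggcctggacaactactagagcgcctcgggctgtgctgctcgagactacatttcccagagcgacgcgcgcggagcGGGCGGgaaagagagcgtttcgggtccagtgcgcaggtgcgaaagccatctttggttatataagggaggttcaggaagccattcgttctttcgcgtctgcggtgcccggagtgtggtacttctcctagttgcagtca
MIRLET7BHG: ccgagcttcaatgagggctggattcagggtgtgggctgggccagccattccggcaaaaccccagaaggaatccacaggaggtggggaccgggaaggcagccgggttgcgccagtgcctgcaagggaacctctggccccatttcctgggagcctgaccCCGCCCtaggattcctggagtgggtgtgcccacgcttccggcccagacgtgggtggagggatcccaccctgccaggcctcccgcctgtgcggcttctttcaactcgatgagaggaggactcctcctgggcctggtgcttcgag
The first MALAT1 window held 5 GC boxes and 37 CG pairs, a number of CG pairs that 11.3% of the 35116 promoters of the table reached. The second held a TATA box, whose first base lay 30 bases before the start, no GC box and 14 CG pairs, which is the median of the table. The ZFAS1 window held 2 GC boxes and 30 CG pairs, and the MIRLET7BHG window 1 GC box and 13 CG pairs. GC boxes are found in 45.0% and TATAAA in 11.5% of the promoters of the table. The letters CCAAT, found in 34.6% of them, and TGANTCA, the AP-1 site, found in 7.71%, had no match in any of the 4 windows. No match overlapped another. These are letter matches, and the hg19 positions of the windows under the peaks were not determined.

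Over the 3 windows, most H3K4me3 peaks met H3K27ac, and fewer met H3K36me3. H3K27ac touched 18 of the 20 H3K4me3 peaks, against 61.7% of all 28639 H3K4me3 peaks and 96.7% of the 1431 widest of them (the widest 5%, over 3607 bases). H3K36me3 touched 9 of the 20, against 14.5% of all and, at nearly the same share, 44.2% of the widest. H3K4me1 touched 12 of the 20, which is near the 49.6% of all H3K4me3 peaks and below the 75.3% of the widest. H3K27me3, the Polycomb mark, touched 1 of the 20, against 15.0% of all and 7.27% of the widest. Whether a peak is touched depends on its width, and the 20 peaks ranged from 669 to 12836 bases, with a median of 1704 against 1328 for the list. At least 90% of the width was under H3K27ac in 15 of the 20, against 50.6% of all H3K4me3 peaks and 84.9% of the widest. At least 50% was under H3K36me3 in 5, against 6.34% and 9.43%, and both marks each covered at least 50% in 3, against 2.44% and 9.22%. These 5, and the 9 that H3K36me3 touched, include all 3 H3K4me3 peaks of the ZNFX1 and ZFAS1 window. H3K36me3 covered 87.5% of that window, so these 3 are not separate places. The 2 peaks without H3K27ac were narrow, at 669 and 1516 bases, and lay inside H3K36me3 in the ZNFX1 and ZFAS1 window.

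Each locus turned on 1 very wide H3K4me3 peak, or 1 for each transcript on chromosome 11. At MIRLET7BHG it was 12836 bases wide and had rank 2 of 28639 by width. At ZNFX1 and ZFAS1 it was 11927 bases wide (rank 3), at MALAT1 9990 (rank 7) and at NEAT1 9434 (rank 10). The peaks just above and below the last of these in the list, at 9767 and 9199 bases, lay on chromosomes 7 and 5. All 4 had a score of 3100, the value at which the peak caller's scores pile up, and 13.9% of H3K4me3 peaks reached it. The other 16 H3K4me3 peaks of the windows were 3762 bases wide or less. Ranks change with the splitting of peaks. Joined over gaps of up to 1 kb, the H3K4me3 stretch at MALAT1 had rank 13 of 26033 and that at NEAT1 rank 9.

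At NEAT1 (chr11:65190269-65213011, plus strand, 22.7 kb), H3K4me3 and H3K27ac lay over the first part of the transcript, and H3K36me3 lay at the start and again over the last part. The wide H3K4me3 peak, chr11:65188685-65198118, began 1.58 kb before the start of NEAT1 and ended 7.85 kb after it. It covered 34.5% of the transcript, and no other H3K4me3 peak touched NEAT1. H3K27ac began earlier, 6.75 kb before the start, in a peak of 12719 bases (rank 104 of 61195 by width). After a gap of 249 bases, a further H3K27ac peak of 1598 bases ended 7.82 kb after the start, just before the end of H3K4me3.

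H3K36me3 covered 45.6% of NEAT1, or 10363 bases, more than H3K4me3 with 7850 and H3K27ac with 8190 bases. Its first peak, of 2839 bases and with a score of 950.31, began 70 bases after the start and lay inside the wide H3K4me3 peak. No H3K36me3 was called from 2.91 kb to 11.8 kb. Between the end of H3K4me3 at 7.85 kb and that point no peak of any of the 5 marks was called. From there to the end of the transcript came 5 more H3K36me3 peaks. The widest of them, 4353 bases with a score of 469.36, ran over the end of NEAT1 and stopped 0.587 kb beyond it.

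In the part of NEAT1 under the wide H3K4me3 peak, H3K27ac covered 96.5% and H3K36me3 36.2%. In the 14893 bases after it, H3K27ac covered 4.15%, as 1 peak of 618 bases with a score of 50.69, close to the lowest value of the list, and H3K36me3 covered 50.5%. H3K4me1 covered 9.80% of the first part and 20.7% of the second, where its widest peak had 1390 bases. Within the 10 kb before the start lay 2 more H3K4me1 peaks, of 2644 and 2032 bases, and the second reached just into the wide H3K4me3 peak. H3K27me3 was not called on NEAT1.

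MALAT1 (chr11:65265233-65273940, plus strand, 8.71 kb) was covered along its whole length by H3K4me3 and nearly so by H3K27ac. The wide H3K4me3 peak, chr11:65265029-65275018, began 204 bases before the start and ended 1078 bases after the end of MALAT1. It covered 100% of the transcript, where the peak at NEAT1, of nearly the same width, covered 34.5% of a transcript that is longer. The second H3K4me3 peak, of 1135 bases, followed after a gap of 7 bases. H3K27ac covered 99.6% of MALAT1 in a peak of 18732 bases, rank 23 of 61195 by width, which began 10.1 kb before the start and stopped 36 bases before the end.

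H3K36me3 covered 58.2% of MALAT1, in 4 peaks that began 2.45 kb after the start and ended 7.86 kb after it. The first 2.45 kb had none, and the last peak ended before the end of the transcript. The largest of the 4, of 2280 bases, had a score of 738.38, and the other 3 had scores of 118.28 to 282.19. H3K36me3 was not called in the 10 kb on either side of the wide H3K4me3 peak, so that over this span it lay only inside H3K4me3 and H3K27ac. The antisense RNA TALAM1 overlaps MALAT1 in RefSeq, and peaks carry no strand, so the marks cannot be assigned to 1 of them.

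H3K4me1 lay on both sides of the wide H3K4me3 peak and not on it. None was called on MALAT1. The H3K4me1 peak before it, of 8859 bases (rank 96 of 175337 by width), began 10025 bases before the start of MALAT1 and ended short of it, and the next began 9.94 kb after the start, beyond the wide H3K4me3 peak. The H3K27ac peak of 18732 bases covered the whole of that H3K4me1 peak and ran on over MALAT1.

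**Figure D1:**
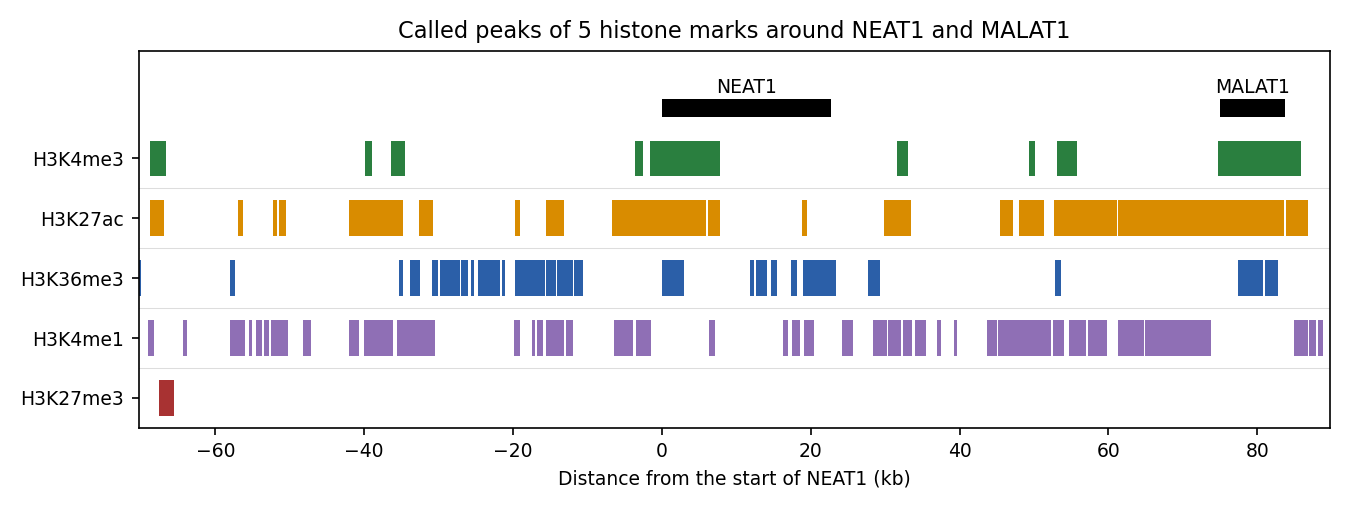
Called peaks of the 5 marks in the chromosome 11 window, 1 row per mark, against the distance from the start of NEAT1 in kb, with both transcripts as black bars and gaps too short to see drawn closed. H3K4me3 covers 34.5% of NEAT1 and 100% of MALAT1, and H3K36me3 lies at the start and over the last part of NEAT1 and in the middle of MALAT1.

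The 52.2 kb between the transcripts had much H3K27ac and H3K4me1 and little H3K4me3 or H3K36me3. H3K4me1 covered 68.6% of it with 16 peaks and H3K27ac 58.5% with 8, while H3K4me3 covered 9.54% and H3K36me3 5.71%. The H3K4me3 peaks there were small beside those of the transcripts, the widest being chr11:65243389-65246003, with 2615 bases and a score of 645.43. It lay inside an H3K27ac peak of 7104 bases, and H3K4me1 covered 73.7% of it. Joining H3K27ac peaks over gaps of up to 1 kb gave a stretch of 34.2 kb, from 65242920 to 65277132, that reached from this region over the whole of MALAT1. It had rank 15 of 48432 joined H3K27ac stretches. Before NEAT1, where FRMD8 is the neighbour in RefSeq, H3K36me3 covered 28.0% of the 70.3 kb, and its last peak there was followed by a gap of 10630 bases that ended 70 bases after the start of NEAT1.

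The 1 H3K27me3 peak of the 3 windows lay near the lower end of the chromosome 11 window, chr11:65122655-65124780, with a score of 314.02. It covered 43.5% of the H3K4me3 peak chr11:65121459-65123575 (2117 bases, score 1064.08), of which H3K27ac covered 83.9%. No H3K27me3 was called in the windows on chromosomes 20 and 22.

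In the ZNFX1 and ZFAS1 window, H3K36me3 was almost continuous and had its longest gap under the wide H3K4me3 peak. RefSeq lists ZNFX1 next to ZFAS1 and the small nucleolar RNA genes SNORD12, SNORD12B and SNORD12C inside ZFAS1. The bounds of these transcripts in hg19 were not used here, so shares are given for the window. H3K36me3 covered 87.5% of the window with 15 peaks, H3K4me3 23.5%, H3K4me1 26.5% and H3K27ac 14.8%. Beside these values stands the chromosome: H3K36me3 covered 7.76% of chromosome 20 and 3.76% of all autosomes. Its peaks there had a median width of 921 against 638 bases. The other marks were raised on chromosome 20 too. H3K4me3 covered 2.11% against 1.56%, with a median width of 1793 against 1358 bases. For H3K27ac the shares were 6.39% and 3.85%, with widths of 1792 and 1319 bases. For H3K4me1 they were 10.4% and 6.25%, with widths of 1128 and 814 bases. H3K27me3, of which the window had none, covered 9.55% of chromosome 20 and 2.50% of all autosomes. The part of this in the values of the window, and in the widths and ranks of its peaks, was not tested.

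The wide H3K4me3 peak was chr20:47892332-47904258. Before it, in the 42.3 kb of the window at lower positions, H3K36me3 covered 93.5%, H3K27ac 1.89% and H3K4me3 5.16%. H3K36me3 then stopped at 47892402, just inside the H3K4me3 peak, and began again at 47895201. The gap of 2798 bases was covered fully by H3K4me3 and by H3K27ac and 5.75% by H3K4me1. No other gap between the 15 H3K36me3 peaks was longer than 652 bases. The H3K36me3 peak after the gap was the widest of the loci, with 12852 bases and a score of 3100 (rank 98 of 113735 by width). It ran 3794 bases beyond the end of H3K4me3. The widest peak on the other side, chr20:47863347-47875548, had 12202 bases and rank 114.

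Inside the wide H3K4me3 peak the marks changed from lower to higher positions. H3K27ac began 798 bases before it, in a peak of 8106 bases that ended at 47899639, and a second H3K27ac peak of 791 bases had a score of 57.81, near the lowest of its list. Together they covered 67.9% of the H3K4me3 peak, and H3K36me3 covered 76.5%. H3K4me1 covered 41.0%, mostly in a peak of 3612 bases from 47898216 to 47901827, and the share was 32.2% with only H3K4me1 peaks of a score of at least 100. Of the bases of this H3K4me3 peak, 25.3% had H3K27ac and H3K36me3, 22.1% H3K27ac only, 20.5% H3K36me3 and H3K4me1, 19.2% all of these marks and 11.6% H3K36me3 only. Over all H3K4me3 bases, H3K36me3 with neither H3K27ac nor another mark was found at 1.24%, and H3K36me3 with H3K4me1 only at 0.782%.

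In the MIRLET7BHG window, H3K4me3 lay inside long H3K27ac peaks and apart from H3K4me1, and H3K36me3 lay mostly at higher positions than the widest H3K4me3 peak. H3K27ac covered 59.3% of the window, H3K36me3 37.9%, H3K4me3 33.2% and H3K4me1 22.4%. With only peaks of a score of at least 100, the share of H3K4me1 was 11.2%. The wide H3K4me3 peak, chr22:46467152-46479987, lay inside an H3K27ac peak of 27084 bases, chr22:46460012-46487095, which was the widest H3K27ac peak of chromosome 22 and had rank 5 of 61195. The same H3K27ac peak held 3 more H3K4me3 peaks, of 2796, 785 and 3762 bases, separated by gaps of 3, 310 and 46 bases. Joined, the 4 spanned 20.5 kb and had rank 2 of 26033 joined H3K4me3 stretches. H3K36me3 covered 80.8% of the H3K4me3 peak of 3762 bases. No H3K4me1 peak touched any of the 7 H3K4me3 peaks of this window.

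Whether the wide H3K4me3 peak lies over MIRLET7BHG or before its start was not determined, since its bounds in hg19 were not used here. In RefSeq the nearest gene before MIRLET7BHG is LINC02939, and the locus LOC124905135 overlaps MIRLET7BHG. H3K36me3 covered 3.94% of the window below the wide H3K4me3 peak and 66.0% of the window above it. Inside the peak it covered 33.2%, in peaks of 3263 and 1002 bases with scores of 849.30 and 232.29. Above it, 5 H3K36me3 peaks with gaps of up to 1 kb ran from 46481826 to 46500314, and the widest, of 6163 bases, had a score of 440.84. The last H3K36me3 peak of the window ended at 46509655.

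At the lower end of the window, the H3K4me3 peak chr22:46448693-46451209, of 2517 bases with a score of 1075.88, lay inside another H3K27ac peak of 7775 bases, and no H3K36me3 touched it. H3K4me1 was not called between 46460893 and 46484942, a gap of 24048 bases, and its widest peak was chr22:46500320-46504243, with 3924 bases. H3K27ac covered that stretch too, in a peak of 5749 bases, without H3K4me3.

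**Figure D2:**
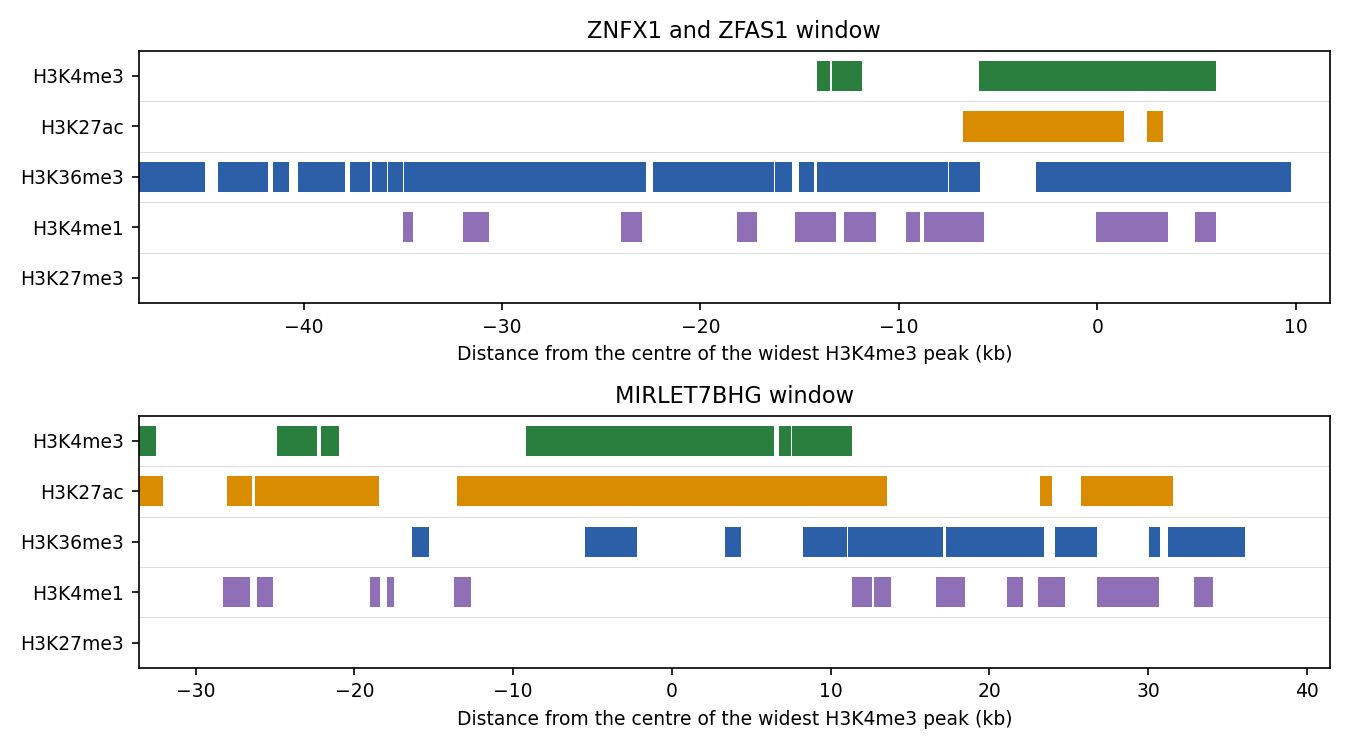
Called peaks of the 5 marks in the windows of ZNFX1 and ZFAS1 (top) and MIRLET7BHG (bottom), 1 row per mark, against the distance in kb from the centre of the widest H3K4me3 peak. In the top panel the longest gap in H3K36me3, 2798 bases, lies under H3K4me3 and H3K27ac, and in the bottom panel H3K36me3 covers 3.94% of the window below the widest peak and 66.0% above it.

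Set side by side, the 4 wide H3K4me3 peaks all held H3K36me3, over shares that differed widely. They also differed in H3K4me1, and the peak at ZNFX1 and ZFAS1 had less H3K27ac than the others. H3K36me3 covered 30.1% of the peak at NEAT1, 33.2% at MIRLET7BHG, 50.7% at MALAT1 and 76.5% at ZNFX1 and ZFAS1. At least 20% was covered in all 4, and in 8 of the 20 H3K4me3 peaks of the windows, against 10.4% of all H3K4me3 peaks and 25.6% of the widest 5%. The 8 include all 3 of the ZNFX1 and ZFAS1 window. The mean covered share was 13.3% over the widest 5% and 7.24% over all. Of the 1431 widest peaks, 19 had a share as high as ZNFX1 and ZFAS1 or higher, 132 as high as MALAT1, 224 as high as MIRLET7BHG and 256 as high as NEAT1. The 19 include the peak at ZNFX1 and ZFAS1 itself and the peak of 3762 bases in the MIRLET7BHG window, with 80.8%. The other 8 of the 12 widest H3K4me3 peaks ranged from 0% to 92.5%, the highest being chr16:87892914-87903151, and 3 of them had none. The rest had 23.4%, 21.9%, 20.0% and 4.86%, so shares of 20% or more were found at similar widths elsewhere too. The widest 5% start at 3607 bases, and most are much narrower than the 4 wide peaks of the loci. Of the H3K4me3 peaks at least 5 kb wide, 18.3% had at least 50% under H3K36me3, against 9.43% of the widest 5%.

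H3K27ac covered 97.1% of the wide peak at NEAT1, 98.4% at MALAT1 and 100% at MIRLET7BHG. Over the widest 5% the mean was 92.7% and the median 100%. Of the widest 5%, 72.5% had a share as high as NEAT1 or higher, and 66.0% as high as MALAT1. The peak at ZNFX1 and ZFAS1, at 67.9%, was below 93.6% of the widest 5% or level with them. H3K4me1 covered 41.0% of that peak, 849 of the 9434 bases at NEAT1 and none at MALAT1 and MIRLET7BHG, against a mean of 24.5% over the widest 5%. With only H3K4me1 peaks of a score of at least 100, the share at NEAT1 fell to 0.848%. H3K27me3 covered none of the 4, as at the median of the widest 5%.

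**Figure D3:**
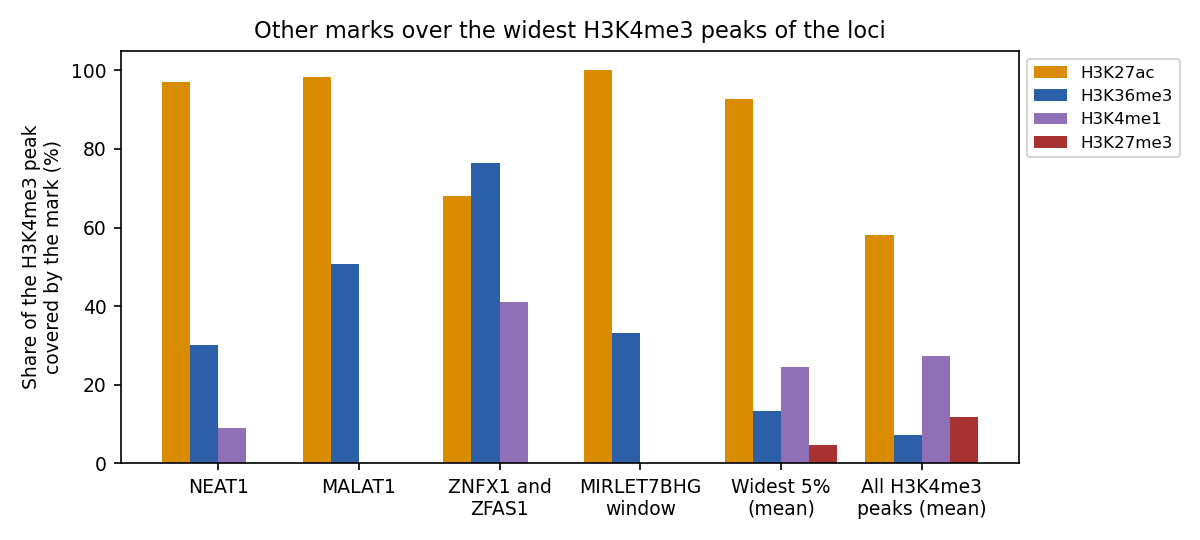
Share of each of the 4 wide H3K4me3 peaks covered by the other marks, in percent, beside the mean share over the widest 5% of H3K4me3 peaks (1431) and over all 28639, with no error bars because each mark has 1 pooled list. H3K36me3 covers 30.1% to 76.5% of the 4 peaks against a mean of 13.3% over the widest 5%, which start at 3607 bases. An absent bar is a share of 0.

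**Figure D4:**
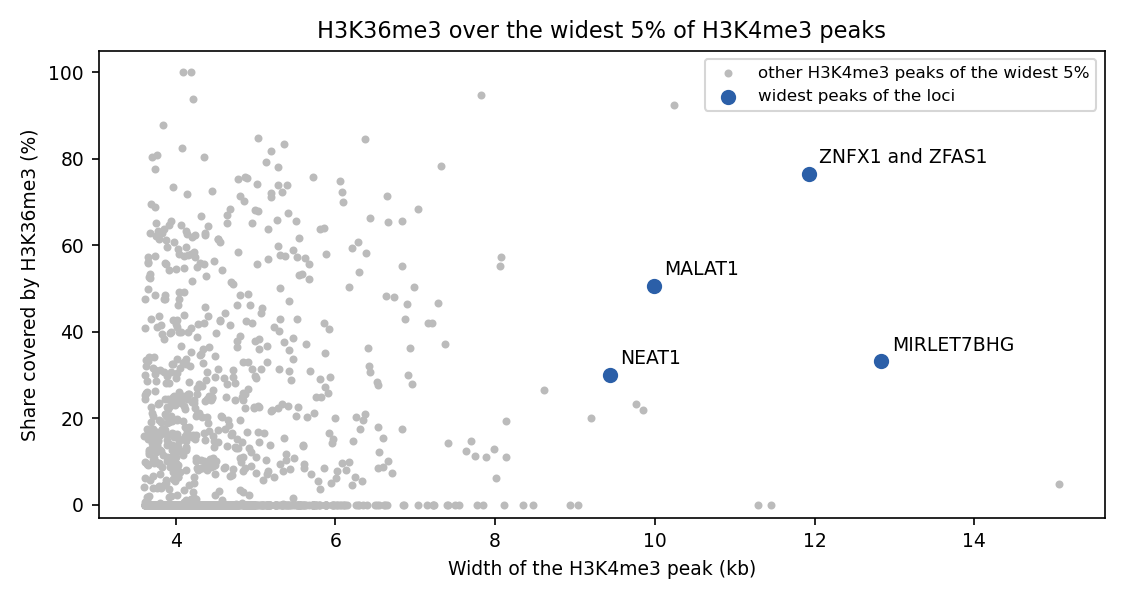
Share of each H3K4me3 peak covered by H3K36me3, in percent, against its width in kb for the widest 5% of H3K4me3 peaks, 1 point per peak, with the 4 wide peaks of the loci in blue. The 4 lie at 30.1% to 76.5%, while the median of the 1431 peaks is 0. A narrower peak of the MIRLET7BHG window, of 3762 bases and 80.8%, is also among the 1431 and is drawn in grey.

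Where marks met, they met in different combinations. H3K27ac and H3K36me3 with no other mark were found on 50.7% of the bases of the peak at MALAT1, 33.2% at MIRLET7BHG, 30.1% at NEAT1 and 25.3% at ZNFX1 and ZFAS1. The same combination made up 7.38% of the bases of the widest 5% of H3K4me3 peaks and 1.63% of all H3K4me3 bases. H3K27ac alone made up 66.8% of the peak at MIRLET7BHG, 58.0% at NEAT1, 47.7% at MALAT1 and 22.1% at ZNFX1 and ZFAS1, against 62.0% in the widest 5%. Peaks called in a population of cells do not show whether the marks share a nucleosome, an allele or a cell.

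The surroundings also differed between the loci. In the 10 kb at higher positions than the wide peak, H3K36me3 covered 81.3% at MIRLET7BHG, 42.6% at ZNFX1 and ZFAS1, 34.4% at NEAT1 and none at MALAT1. In the 10 kb at lower positions the shares were 10.7%, 94.3%, 10.2% and none. Over the widest 5% of H3K4me3 peaks the means were 19.6% below and 19.5% above. Among all 20 H3K4me3 peaks of the windows, 2 had H3K36me3 over at least 50% of the 10 kb on both sides, against 2.06% of all H3K4me3 peaks and 2.59% of the widest. Neither was 1 of the 4 wide peaks. Both lay in the ZNFX1 and ZFAS1 window, with 669 and 1516 bases and 104 bases apart, so they mark 1 place. For NEAT1, which runs from lower to higher positions, the higher side is the side of the transcript, and for MALAT1 both sides lie outside it. H3K27ac covered 99.6% of the 10 kb before the wide peak at MALAT1 and none of the 10 kb after the one at NEAT1.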

How the data were processed

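Each mark of RWPE-1 is represented by 1 peak list deposited by the authors for the combined replicates, with a position and a score per peak. The submitters' processing notes list CASAVA 1.8.2, Bowtie2, MACS 1.4 and build hg19. Of the control, the calling settings and the step at which replicates were combined, no detail is known (not given in the sources used here). Deposited by the authors without a header, the score (lowest value 50.0, many values at 3100 or above) was read as the peak caller's score. A caller for narrow peaks splits broad marks, so widths and gaps of H3K36me3 follow the caller, as do the width ranks of H3K4me3. Depth is unknown.

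Chromosomes 1 to 22 and X were used, and positions count from 1. Covered shares are bases under called peaks, and peaks touched when they shared 1 base. NEAT1 and MALAT1 bounds in hg19 came with the choice of loci. RefSeq tables of GRCh38.p14 gave names, gene order and sequences, no positions. No test was possible with 1 list per mark. The peaks named in the text were every H3K4me3 peak of at least 2 kb in the windows and the widest peak of each other mark at each locus, and others named were chosen after their values were seen. Members and lists were chosen with earlier results of these data known. Alternatives were a score of at least 100, joining over gaps of up to 1 kb and touching by 50% of the smaller peak. Alternatives for H3K4me1, H3K27me3, flanks and joined stretches were added after the data were seen. The interval code, tested on simulated data, gave 0 mismatches in 1000 regions. The code ran in Python 3.11.15 with pandas 2.3.3, numpy 2.4.6 and scipy 1.17.1, and matplotlib 3.10.9 drew the figures. Neither the input nor the DNase library was analysed here.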

Additional observations from a re-analysis of the deposited data

How the results depend on the processing

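No paired analysis was possible because each mark has 1 list for the combined replicates, and leaving out a replicate was not possible for the same reason. A change is given where it passed the 95% Wilson interval of the covered share or moved a count by over 1.5 times. That interval treats bases as independent, which bases under the same peak are not. It therefore served as a cut-off only and measured no error of the shares. With only peaks of a score of at least 100, H3K36me3 covered 39.5% of NEAT1, 85.1% of the ZNFX1 and ZFAS1 window and 37.0% of the MIRLET7BHG window. H3K27ac covered 33.3% of NEAT1, 13.5% and 58.3% of these windows and 61.3% of the wide H3K4me3 peak at ZNFX1 and ZFAS1. H3K4me3 covered 22.4% and 30.7% of the same windows. H3K27ac then touched 78.0% and H3K36me3 10.2% of the 19182 H3K4me3 peaks left. Of the 16 left at the loci, H3K27ac touched 15 and H3K36me3 touched 7. H3K4me1 covered 10.8% of NEAT1 (from 16.9%), 18.3% and 11.2% of the windows of ZNFX1 and ZFAS1 and of MIRLET7BHG, and 0.848% and 32.2% of the wide H3K4me3 peaks at NEAT1 and at ZNFX1 and ZFAS1. H3K36me3 in the 10 kb above the wide peak was 23.7% at NEAT1 and 37.9% at ZNFX1 and ZFAS1.

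With peaks joined over gaps of up to 1 kb, H3K36me3 covered 52.4% of NEAT1, 62.2% of MALAT1, 54.2% of the wide H3K4me3 peak at MALAT1, 92.1% of the ZNFX1 and ZFAS1 window and 39.8% of the MIRLET7BHG window. H3K27ac covered 37.1% of NEAT1, 100% of MALAT1, and 99.7% and 100% of the wide H3K4me3 peaks at NEAT1 and MALAT1. H3K4me3 covered 34.0% of the MIRLET7BHG window. H3K4me1 covered 21.7% of NEAT1 and 27.5% and 25.1% of the windows of ZNFX1 and ZFAS1 and of MIRLET7BHG.

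When touching meant 50% of the smaller peak, H3K27me3 touched 0 of the 20 H3K4me3 peaks and 13.7% of all, H3K36me3 10.8% of all and H3K4me1 35.3% of all. The widest H3K4me3 peaks were kept as called when other peaks were joined. The order of the 4 wide peaks by H3K36me3 was the same with a score of at least 100 and with joining. The cause of the other changes was not tested.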

Other observations

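Long H3K4me3 peaks that lie largely under H3K36me3 were found elsewhere too. Of 312 H3K4me3 peaks at least 5 kb wide, 57, or 18.3%, had H3K36me3 over at least 50% of their bases. In all 57, H3K27ac covered at least 50% as well. Such cover was common among wide H3K4me3 peaks. Over the widest 5%, the mean share under H3K27ac was 92.7%, and 84.9% of these peaks had at least 90%. How many of the 312 had at least 50% was not counted, and a link between H3K27ac and H3K36me3 was not tested. By width, the peak at ZNFX1 and ZFAS1 was the widest of the 57 and that at MALAT1 the third. Between them stood chr16:87892914-87903151, of 10238 bases, with H3K36me3 over 92.5% and H3K4me1 over 70.8%. The next 3 were on chromosome 17 from 48131630 to 48139704, with H3K36me3 over 57.3%, chromosome 14 from 69255227 to 69263287, with 55.2%, and chromosome 17 from 38650311 to 38658132, with 94.7%. H3K27ac covered 100% of each of these. The width and share used here were chosen after the data were seen, and the list is a description.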
